A study of Mus musculus with 9 samples.

Results

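Immediate early genes are transcribed within minutes of a stimulus, without new protein synthesis, because the factors that switch them on are already present in the resting cell. In beta cells, glucose closes potassium channels, the membrane depolarises and calcium enters; calcineurin, calmodulin-dependent kinases, ERK and protein kinase A then act on CREB with its CRTC partners, on SRF with its partners and on NFAT. The products are mostly transcription factors (the FOS, JUN, EGR, NR4A and KLF families), together with phosphatases and RNA-binding proteins that limit the response. The same genes are known to respond to tissue handling, to stress and to growth factors. Here 38 genes of this kind were followed in RNA sequencing counts of islets of Langerhans, the endocrine clusters of the pancreas. They were chosen by symbol from a list of activity-induced genes and matched exactly to rows of the count table. This choice, like that of the gene lists used further on, was made with earlier results of these data known. All 38 were found among 52459 symbols, and all 38 passed the filter on low counts that left 16826 genes for testing.

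The mice were db/db, db/+ and wild type (WT), with 3 libraries per group and all at 12 weeks of age. The db mutation lies in Lepr, the gene of the leptin receptor. Mice with the db/db genotype carry it on both chromosomes, are obese and become diabetic, and db/+ mice carry a single copy. Every library, WT included, has the same strain label, BKS.Cg-Dock7m +/+ Leprdb/J, in which Dock7m is the misty coat colour allele; the labels do not say which of the mice carried misty. Ribosomal RNA was removed from total RNA and the libraries were sequenced. Levels are CPM, counts scaled to the same normalised library size, with a value per library and n = 3 per group. Differences are log2 fold changes ± SE, and adjusted p comes from the quasi-likelihood test of edgeR, adjusted over the whole table by the Benjamini-Hochberg method, with a threshold of 0.05. The labels do not say whether the libraries are separate animals or pools, so the p values reflect just how these libraries vary, which may be technical. The counts come from whole islets, so that fewer cells of a type and less RNA per cell cannot be told apart.

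Library totals were 8860024 to 11734886 counts, and 3 counts, the limit that a count of 0 allows, correspond to 0.238 to 0.412 CPM (counting error only). The defining endocrine genes (Ins1, Ins2, Gcg, Sst, Ppy and Chga) summed to 77210 to 108527 CPM in db/db, 109520 to 120564 CPM in db/+ and 92562 to 120025 CPM in WT. Gcg fell in db/db against WT (-0.81 ± 0.19, adjusted p = 0.00625) and against db/+ (-1.03 ± 0.19, adjusted p = 0.00165). Sst fell against db/+ (-0.48 ± 0.11, adjusted p = 0.00356) and rose in db/+ against WT (0.51 ± 0.11, adjusted p = 0.043). Ins1, Ins2, Ppy and Chga did not pass in any comparison. Some features of the libraries bear on what follows. Gm42418 and Lars2 together held 17.9% of counts in db/db 1 and 13.3% in db/db 2, but 0.056% in db/db 3. Their share was 0.022 to 0.024% in db/+ and 1.89 to 2.58% in WT. The normalisation factors were 0.825 in db/db 1 and 0.873 in db/db 2, and 1.01 to 1.10 in the other libraries. Libraries db/db 1, WT 1 and WT 3 held both Xist and Y-linked counts, db/db 2 and db/db 3 almost only Xist, and db/+ and WT 2 almost only Y-linked counts. These sex-linked counts thus differed between the genotypes, and libraries with both kinds may hold RNA of mice of both sexes. The titles of the db/db libraries and of WT 3 begin with one letter and the other 5 titles with another, so that letter and genotype cannot be told apart between db/db and db/+. Genes of other cell types also differed: in db/db, 11 of 18 acinar genes rose against WT and 1 of 18 against db/+, and all 7 duct genes and 6 of 8 stellate, fibroblast and pericyte genes rose in both comparisons. Of 8 endothelial genes 4 and 5 rose and 1 fell in each, and of 8 macrophage genes 2 and 3 rose. Of all tested genes, 21.8% rose against WT and 20.6% against db/+. In db/+ against WT 0 of 18 acinar genes passed, with a median log2 fold change of 1.41. Summed CPM of the acinar genes were 18217 to 51146 in db/db, overlapping the 15099 to 34341 of db/+, and 6541 to 12334 in WT. Those of the duct genes were 705 to 1243 in db/db, 293 to 317 in db/+ and 283 to 296 in WT, and those of the stellate, fibroblast and pericyte genes 699 to 1701 in db/db, 224 to 337 in db/+ and 228 to 325 in WT. In db/db 1 the acinar, duct, stellate, endothelial and macrophage sums were all the highest of the 9 libraries. The part of these features in the results was not tested beyond the alternatives given.

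In db/db islets the genes did not move as a group. Npas4 and Arc, which calcium entry switches on in excitable cells, were far lower than in WT and in db/+, and Nr4a1, Fosl1 and Ier5 were lower as well, whereas Bdnf, Ier3, Klf6 and Fosl2 were higher. Fosl1 is uncertain, with 3 to 6 counts in db/db and an overlapping gene. The rise of Fosl2 against WT did not hold under 8 of 22 alternatives, nor that of Klf6 against db/+ under 6. Against WT, 15 of 38 genes (39.5%) fell and 11 (28.9%) rose, beside 19.9% and 21.8% of all tested genes (41.7% in either direction). Against db/+, 20 (52.6%) fell and 8 (21.1%) rose, beside 19.7% and 20.6% of all tested genes (40.3% in either direction). The median log2 fold change of the 38 genes was -0.01 against WT, where that of all tested genes was 0.01, and -0.40 against db/+, where that of all tested genes was 0.01. Both comparisons use the same db/db libraries. A change of at least 2-fold was found in 5 of the 15 and 6 of the 11 against WT, and in 7 of the 20 and 4 of the 8 against db/+. By genotype, 15 genes fell against both WT and db/+, 7 rose against both, and Klf10 and Mafk were higher than in WT and lower than in db/+. Egr2, Egr3, Nr4a2, Klf4, Atf3, Dusp2, Zfp36 and Sik1 did not pass in any comparison with all 9 libraries in the fit.

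With library totals in place of normalisation factors, the median of all tested genes shifted by -0.22 against WT and -0.23 against db/+, and 18 genes fell and 4 rose against WT. Once Gm42418 and Lars2 were removed, 15 fell and 10 rose against WT, and 20 fell and 8 rose against db/+. With the title letter in the fit, 12 fell and 3 rose against WT, and 14 fell and 0 rose against db/+. In that fit the letter effect rested on WT 3 against the other WT libraries, as only WT held both letters. Its counts against db/+ therefore cannot tell letter from genotype. With the summed Y-linked level in the fit, 5 fell and 6 rose against WT, and 4 fell and 5 rose against db/+. With the acinar level in the fit, 6 fell and 12 rose against WT. The Y-linked sum was 0.108 to 176 CPM in db/db, 219 to 343 in WT and 373 to 417 in db/+, without overlap. The acinar mean on the log2 scale did not overlap between db/db (8.77 to 10.1) and WT (7.21 to 8.01). Where groups do not overlap in such a level, the fit cannot tell it from genotype. Across 22 alternatives, among them the fits with these limits, Npas4 and Arc passed every time in both comparisons.

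**Figure D1:**
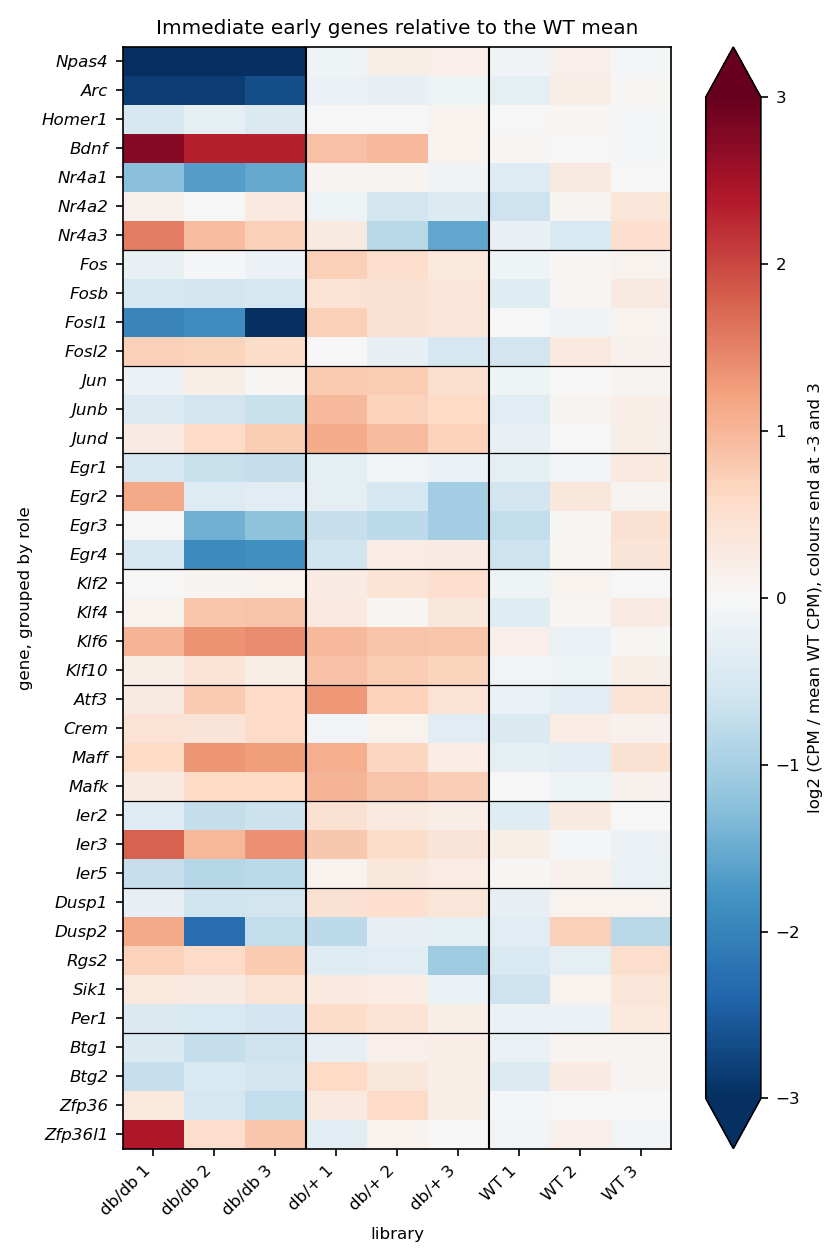
Level of each of the 38 genes (rows, grouped by role) in each of 9 libraries (columns), as log2 of its CPM over the mean CPM of the WT libraries; colours end at -3 and 3. The db/db columns are dark blue for Npas4 and Arc and red for Bdnf, Ier3 and Klf6, while the db/+ columns are pale red for Fos, Jun, Junb, Jund, Klf6, Klf10 and Mafk.

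**Figure D2:**
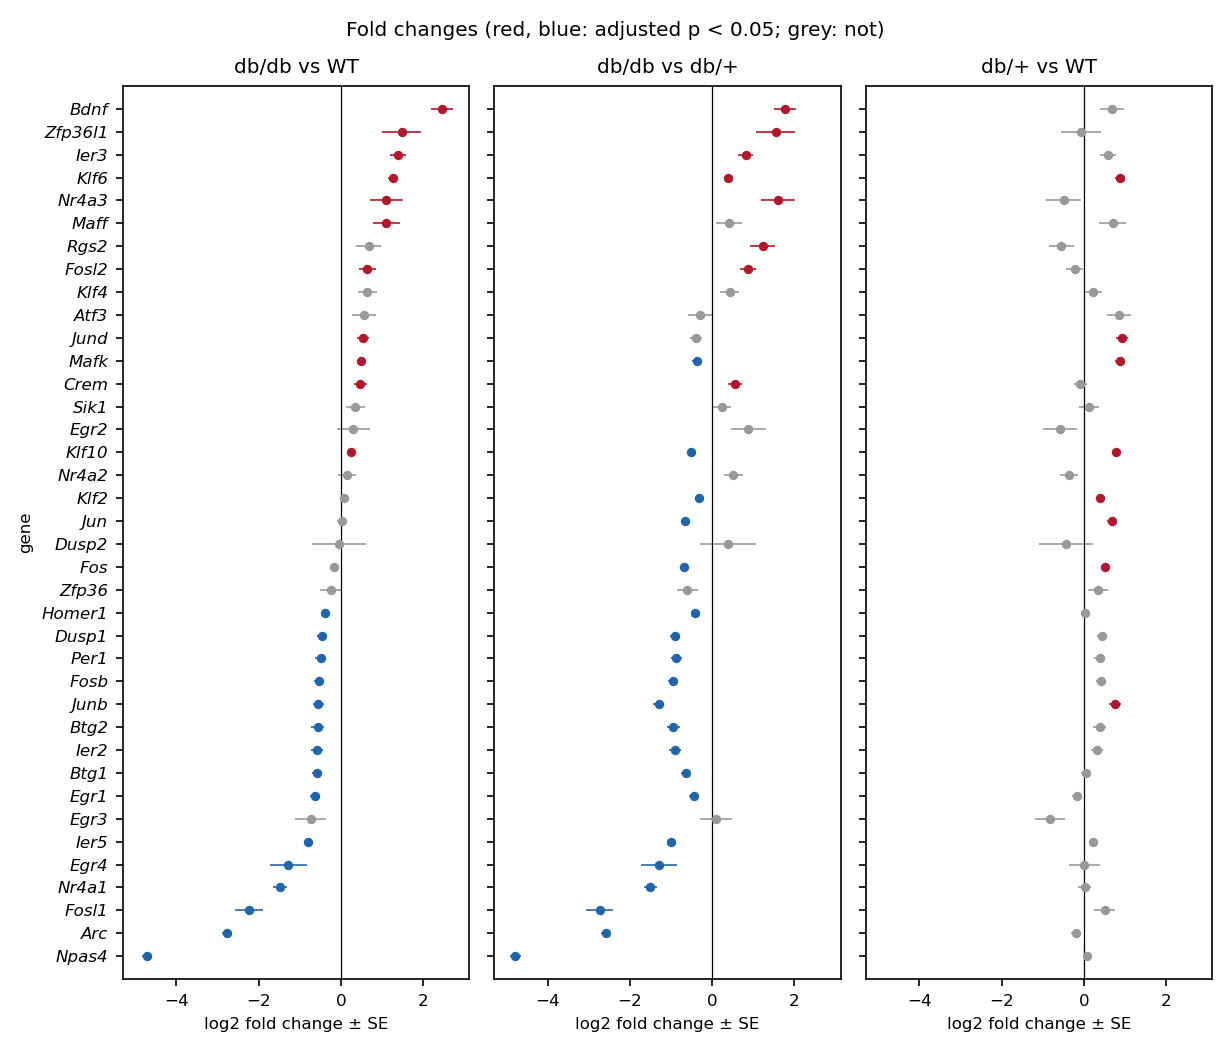
Log2 fold change ± SE of each gene in db/db against WT, db/db against db/+ and db/+ against WT, ordered by the first; red and blue points passed an adjusted p of 0.05 and grey points did not. Npas4 lies at -4.72 and -4.79 in the first and second panels and at 0.07 in the third.

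Npas4 (chr19:4984353-5003439, GRCm38), a basic helix-loop-helix PAS transcription factor that depolarisation induces in neurons and beta cells, showed the largest change among the 38 genes. Its level was 8.78, 9.17 and 11.4 CPM in db/db, 237, 292 and 288 in db/+, and 241, 288 and 249.6 in WT. The means were 9.79 ± 1.43 in db/db, 273 ± 30.5 in db/+ and 259 ± 25.1 CPM in WT (SD, n = 3 each). Every db/db library was far below every other library, and the db/+ and WT libraries overlapped. Npas4 was 26.3-fold lower than in WT (log2 fold change -4.72 ± 0.13, adjusted p = 1.03e-10) and 27.6-fold lower than in db/+ (-4.79 ± 0.13, adjusted p = 8.49e-11). The difference of db/+ from WT did not pass (0.07 ± 0.10, adjusted p = 0.799). The level in db/db rested on 64, 74 and 106 counts, well above the limit that a count of 0 allows. With 1 library left out, adjusted p was 8.32e-11 to 4.83e-09 against WT and 9.36e-11 to 5.57e-09 against db/+.

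Arc (chr15:74669081-74672570), a cytoskeleton-associated protein of synapses whose RNA is a classical marker of recent neuronal activity, had 19.3, 19.3 and 21.9 CPM in db/db, 122, 116 and 125 in db/+, and 115, 160.4 and 142 in WT. The db/db libraries again lay apart from all others and were close to each other. Arc fell against WT (-2.78 ± 0.12, adjusted p = 2.88e-09; 6.87-fold) and against db/+ (-2.58 ± 0.12, adjusted p = 5.11e-09; 5.99-fold). Nr4a1 (chr15:101253902-101274795), the orphan nuclear receptor Nur77 and a target of cAMP and calcium signalling, had 131, 98.7 and 107 CPM in db/db, 332, 331 and 290.2 in db/+, and 241, 379 and 318 in WT. The highest db/db library stood below the lowest of the other 6, and Nr4a1 fell by 1.48 ± 0.16 on the log2 scale against WT (adjusted p = 4.69e-05) and by 1.50 ± 0.16 against db/+ (adjusted p = 4.44e-05). Homer1, a scaffold of glutamate receptors with a short activity-induced form that gene-level counts do not separate, had 24.97, 29.1 and 25.97 CPM in db/db, 34.7, 34.3 and 37.4 in db/+, and 34.4, 36.03 and 34.03 in WT. Its db/db levels were lowest, by a smaller margin (-0.38 ± 0.09, adjusted p = 0.00452 against WT; -0.41 ± 0.09, adjusted p = 0.00295 against db/+).

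**Figure D3:**
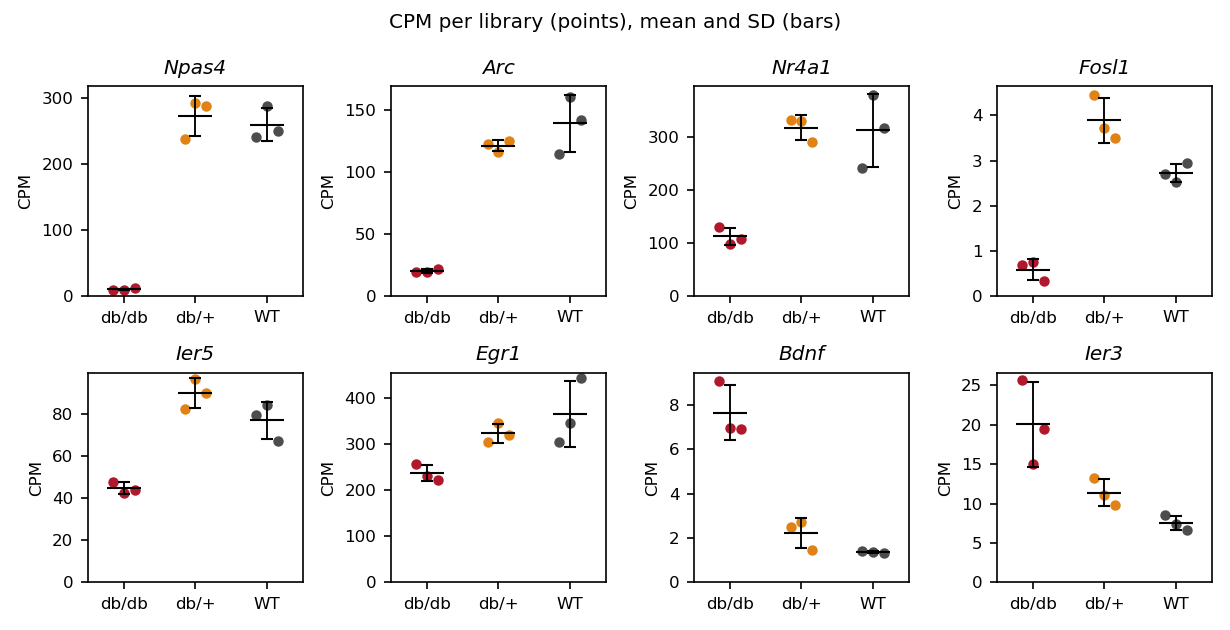
CPM in each library (points) with mean and SD (bars) for 6 genes that fell and 2 that rose in db/db against both other groups; each panel starts at 0. The db/db points of Npas4 lie at 8.78 to 11.4 CPM, against 237 to 292 CPM in db/+ and 241 to 288 CPM in WT, and those of Bdnf lie above all other points.

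Not all calcium-regulated genes were lower. Bdnf (chr2:109674700-109727043), a neurotrophin with several activity-regulated promoters in neurons, had 9.06, 6.94 and 6.90 CPM in db/db, 2.51, 2.70 and 1.47 in db/+, and 1.43, 1.35 and 1.32 in WT. Every db/db library was above every other, although levels were low throughout, with 56 to 66 counts in db/db, 18 to 32 in db/+ and 13 to 18 in WT. Bdnf rose 5.52-fold against WT (2.46 ± 0.28, adjusted p = 1.06e-05) and 3.41-fold against db/+ (1.77 ± 0.26, adjusted p = 0.000114). The call against db/+ was lost with the title letter in the fit (adjusted p = 0.0508), where the letter effect rested on WT 3. Nr4a3, the receptor Nor1, had 8.37, 5.45 and 4.74 CPM in db/db, 3.48, 1.60 and 0.979 in db/+, and 2.46, 2.08 and 4.06 in WT, highest in db/db 1. It rose against WT (1.11 ± 0.41, adjusted p = 0.0457) and against db/+ (1.60 ± 0.42, adjusted p = 0.0095), but the call against WT did not hold without db/db 1, db/db 2, db/+ 2, WT 1 or WT 2 (adjusted p = 0.0614 to 0.143). Without db/+ 1, which had the highest of the db/+ levels, the log2 fold change against db/+ was 2.24. The third receptor of the family, Nr4a2 (Nurr1), had 39.5, 36.4 and 44.7 CPM in db/db, 32.5, 24.8 and 27.3 in db/+, and 23.6, 38.4 and 47.1 in WT. The db/db libraries stood above db/+ and overlapped WT, and neither difference passed (0.16 ± 0.23, adjusted p = 0.614 against WT; 0.51 ± 0.23, adjusted p = 0.104 against db/+). The second passed without WT 1 or WT 3 (adjusted p = 0.00609 to 0.044), and without WT 1 the first was -0.09.

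Many immediate early genes carry cAMP response elements, to which CREB binds, close to their transcription start. Promoter windows from RefSeq (GRCm38.p6), 250 bases before to 50 bases after a start, are shown for genes at the ends of the fold change range. All passed against both WT and db/+, and they are given to let the letters be set beside the values. They are the 3 lowest with an entry (Npas4, Nr4a1 and Egr4) and the 2 highest (Bdnf and Zfp36l1); Arc and Fosl1 are named only. Capitals mark TGACG, the core of the element TGACGTCA, or its reverse complement CGTCA; each line runs 5′ to 3′ along the gene's strand. For Bdnf, the window shown is the one of its 7 that holds the core.
Npas4 (chr19:4989922-4990221, minus strand): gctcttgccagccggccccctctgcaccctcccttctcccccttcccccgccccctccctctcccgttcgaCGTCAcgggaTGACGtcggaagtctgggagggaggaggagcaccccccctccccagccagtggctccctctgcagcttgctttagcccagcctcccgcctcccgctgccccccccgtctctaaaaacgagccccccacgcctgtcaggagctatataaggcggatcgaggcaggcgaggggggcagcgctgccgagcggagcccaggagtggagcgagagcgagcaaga
Nr4a1 (chr15:101266596-101266895, plus strand): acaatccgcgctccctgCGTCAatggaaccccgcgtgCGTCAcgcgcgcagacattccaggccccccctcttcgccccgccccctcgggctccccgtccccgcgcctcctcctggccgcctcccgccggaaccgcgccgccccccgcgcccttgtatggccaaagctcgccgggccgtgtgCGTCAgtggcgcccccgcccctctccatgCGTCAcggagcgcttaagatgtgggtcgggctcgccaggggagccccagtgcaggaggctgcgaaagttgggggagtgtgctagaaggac
Egr4 (chr6:85513540-85513839, minus strand): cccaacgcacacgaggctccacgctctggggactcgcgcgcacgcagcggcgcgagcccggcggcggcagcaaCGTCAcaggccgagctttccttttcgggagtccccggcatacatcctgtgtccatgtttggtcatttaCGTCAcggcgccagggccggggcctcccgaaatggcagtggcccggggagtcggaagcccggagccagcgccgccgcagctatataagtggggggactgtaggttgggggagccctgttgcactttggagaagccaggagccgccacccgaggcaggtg
Bdnf (chr2:109692186-109692485, plus strand): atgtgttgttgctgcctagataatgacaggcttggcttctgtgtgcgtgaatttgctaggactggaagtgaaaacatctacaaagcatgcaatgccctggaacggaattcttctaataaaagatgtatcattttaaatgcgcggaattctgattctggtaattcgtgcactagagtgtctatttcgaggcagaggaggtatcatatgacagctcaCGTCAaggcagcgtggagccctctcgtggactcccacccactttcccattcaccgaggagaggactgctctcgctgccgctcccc
Zfp36l1 (chr12:80112964-80113263, minus strand): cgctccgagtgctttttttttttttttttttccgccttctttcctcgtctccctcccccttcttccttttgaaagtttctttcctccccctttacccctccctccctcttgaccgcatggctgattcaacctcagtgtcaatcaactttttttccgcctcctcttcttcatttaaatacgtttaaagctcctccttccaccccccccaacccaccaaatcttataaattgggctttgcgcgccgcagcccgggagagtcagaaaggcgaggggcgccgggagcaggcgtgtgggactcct

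The Npas4 window holds the core 2 times on opposite strands, the Nr4a1 window 4 times and the Egr4 window 2 times, while the Zfp36l1 window holds none. Of 30 genes with a window, 22 (73.3%) held the core on either strand, beside 23% of 27025 genes with a window and 34.7% of the 10901 tested genes with one. Among the genes that fell in both db/db comparisons it was in 10 of 11 with a window (all but Ier5), and among those that rose in both in 2 of 6 (Bdnf and Nr4a3). The windows also differed in base composition, with a median GC content of 65.3% for the genes that fell, 53.5% for those that rose and 60.7% for all tested genes, and genes with several starts have several windows. The full element TGACGTCA, each copy of which holds the core on both strands, was in the windows of Btg2, Dusp1 and Maff. That is 10%, beside 2.03% of genes and 3.6% of the tested genes with a window. The AP-1 site TGACTCA, to which FOS and JUN bind, was in 0 of 30 (5.95% of genes), and the TATA box TATAAA in 5 (16.7%, beside 15.7% of genes). The EGR site GCGTGGGCG was in Maff alone, and the CArG box, to which SRF binds, in Egr2 and Zfp36 (6.67%, beside 1.81% of genes). A match describes these letters only, and binding was not measured.

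FOS and JUN proteins pair to form AP-1. Per kilobase of transcript, Fos was the most abundant of the 38 genes in every group, with Jun and Fosb next. Fos had 1554, 1740.4 and 1616 CPM in db/db, 2995, 2622 and 2271 in db/+, and 1652, 1864 and 1947 in WT. The db/db and WT libraries overlapped (-0.15 ± 0.11, adjusted p = 0.281), and all 3 db/db libraries were below the db/+ libraries (-0.68 ± 0.11, adjusted p = 0.000271). Jun had 816, 1029.9 and 943 CPM in db/db, 1586, 1541 and 1282 in db/+, and 842, 929 and 971 in WT. Again the db/db libraries overlapped WT (0.02 ± 0.11, adjusted p = 0.879) and lay below db/+. Jun fell against db/+ (-0.66 ± 0.11, adjusted p = 0.000353), a call that held under all 22 alternatives.

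Fosb, Junb and Fosl1 were lower against both groups. Fosb had 807, 794 and 814 CPM in db/db, 1586, 1591 and 1495 in db/+, and 902, 1192 and 1403 in WT. Its db/db levels lay within a narrow range below all others (-0.53 ± 0.13, adjusted p = 0.00425 against WT; -0.95 ± 0.13, adjusted p = 5.99e-05 against db/+). Junb had 325, 295 and 271 CPM in db/db, 849, 696 and 654 in db/+, and 343, 455 and 498 in WT. The db/db libraries lay below all WT and db/+ libraries, with a larger difference from db/+ (-1.31 ± 0.14, adjusted p = 1.87e-05) than from WT (-0.54 ± 0.14, adjusted p = 0.00824), and db/+ was itself above WT. Fosl1 (Fra-1) had 0.686, 0.743 and 0.323 CPM in db/db, 4.45, 3.71 and 3.51 in db/+, and 2.70, 2.53 and 2.95 in WT. These rested on 5, 6 and 3 counts in db/db, 55, 44 and 43 in db/+, and 34, 28 and 29 in WT, and the db/db libraries were lowest. Fosl1 fell by 2.23 ± 0.35 on the log2 scale against WT (adjusted p = 0.000187) and by 2.74 ± 0.33 against db/+ (adjusted p = 2.42e-05). Fosl1 overlaps Ccdc85b, whose counts over the 9 libraries came to 388% of those of Fosl1, and no source used here states the strand setting of the counting. The Fosl1 values are therefore uncertain. Ccdc85b had a log2 fold change of -0.38 ± 0.16, adjusted p = 0.0658 against WT and -0.60 ± 0.16, adjusted p = 0.00733 against db/+.

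Fosl2 and Jund went the other way against WT. Fosl2 (Fra-2) had 74.4, 71.7 and 66.8 CPM in db/db, 45.6, 38.5 and 31.98 in db/+, and 31.1, 55.2 and 49.7 in WT. All db/db libraries were highest (0.65 ± 0.20, adjusted p = 0.0285 against WT; 0.87 ± 0.20, adjusted p = 0.00793 against db/+). The call against WT was lost without db/db 1, db/db 2, db/db 3 or WT 3 (adjusted p = 0.0524 to 0.0809). Jund, the least inducible of the JUN family, had 309, 386 and 442 CPM in db/db, 561, 502 and 421 in db/+, and 225, 265 and 294 in WT. It was higher in db/db than in WT (0.54 ± 0.15, adjusted p = 0.0126) and overlapped db/+ (-0.38 ± 0.15, adjusted p = 0.0564; adjusted p = 0.0221 to 0.0495 without db/db 3, db/+ 3, WT 1 or WT 3). With library totals in place of normalisation factors, the Jund call against WT was lost.

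The EGR zinc-finger factors are induced through SRF and ELK downstream of ERK. Egr1, the most abundant of them per kilobase, had 256, 231 and 222 CPM in db/db, 304, 345 and 320.3 in db/+, and 304, 345 and 443 in WT. The db/db libraries lay below all others, although the difference was under 2-fold (-0.62 ± 0.12, adjusted p = 0.00115 against WT; -0.45 ± 0.12, adjusted p = 0.0091 against db/+). Egr4 was lower in db/db, with 1.65, 0.619 and 0.647 CPM, against 1.54, 2.70 and 2.77 in db/+ and 1.51, 2.44 and 3.05 in WT. Library db/db 1 overlapped both groups (-1.28 ± 0.44, adjusted p = 0.0329 against WT; -1.29 ± 0.44, adjusted p = 0.0309 against db/+). The Egr4 call against WT was lost without db/db 2, db/db 3, WT 2 or WT 3 (adjusted p = 0.0731 to 0.126), and that against db/+ without db/db 2, db/db 3, db/+ 2 or db/+ 3 (adjusted p = 0.0904 to 0.123). Egr2 had 13.2, 4.58 and 4.85 CPM in db/db, 4.93, 4.22 and 2.94 in db/+, and 4.13, 7.59 and 6.40 in WT. Egr3 had 8.51, 3.10 and 3.66 CPM in db/db, 5.17, 4.89 and 4.08 in db/+, and 5.08, 8.58 and 11.6 in WT. In db/db both were highest in db/db 1, and neither passed (Egr2 0.31 ± 0.41, adjusted p = 0.58 and Egr3 -0.73 ± 0.39, adjusted p = 0.153 against WT). Without db/db 1 the log2 fold change of Egr2 against WT was -0.35 (adjusted p = 0.361). Egr3 was -1.29 without db/db 1 (adjusted p = 0.00571) and -1.01 without WT 1 (adjusted p = 0.0468), and so passed against WT without either. Against db/+ Egr3 was 0.09 with all libraries and -0.47 without db/db 1 (adjusted p = 0.295).

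Among the Krüppel-like factors, zinc-finger regulators of growth and differentiation, Klf6 had 376, 472 and 491 CPM in db/db, 362, 331 and 326 in db/+, and 204, 159.7 and 190.1 in WT. Every db/db library stood above every other, and the db/+ libraries stood between db/db and WT. Klf6 rose 2.42-fold against WT (1.27 ± 0.11, adjusted p = 1.52e-06) and 1.31-fold against db/+ (0.39 ± 0.11, adjusted p = 0.0123). The second call was lost without db/db 3, db/+ 2 or db/+ 3 (adjusted p = 0.051 to 0.0552). Klf10, a factor induced by TGF-beta, had 79.5, 93.4 and 79.96 CPM in db/db, 129.6, 121 and 112 in db/+, and 67.2, 65.1 and 79.96 in WT. It fell against db/+ (-0.52 ± 0.10, adjusted p = 0.000739), with no overlap. Its small rise against WT (0.25 ± 0.10, adjusted p = 0.0496) was lost under 17 of 22 alternatives, among them without db/db 2, db/db 3, db/+ 1, db/+ 2, db/+ 3, WT 1 or WT 2 (adjusted p = 0.0536 to 0.219). Klf2 had 58.04, 61.6 and 61.9 CPM in db/db, 68.7, 76.7 and 81.2 in db/+, and 52.7, 62.5 and 57.9 in WT. All db/db libraries were below db/+ (-0.32 ± 0.09, adjusted p = 0.01) and overlapped WT (0.07 ± 0.09, adjusted p = 0.554). Klf4 had 91.4, 151 and 154 CPM in db/db, 104, 86.4 and 107 in db/+, and 65.9, 88.4 and 99.8 in WT. It did not pass (0.65 ± 0.23, adjusted p = 0.0519 against WT; 0.42 ± 0.22, adjusted p = 0.177 against db/+). Without db/db 1 it passed against WT (log2 fold change 0.85, adjusted p = 0.00165) and db/+ (0.63, adjusted p = 0.00912), and against WT it also passed by DESeq2 and by limma-voom.

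Small MAF proteins lack an activation domain and pair with other bZIP factors. Mafk had 47.8, 60.2 and 59.6 CPM in db/db, 79.9, 71.7 and 65.7 in db/+, and 39.8, 35.3 and 43.5 in WT. The groups fell into 3 levels without overlap between any 2 of them, with db/db in the middle (0.50 ± 0.11, adjusted p = 0.00276 against WT; -0.37 ± 0.11, adjusted p = 0.0142 against db/+). The second was lost without db/db 1 or db/+ 1 (adjusted p = 0.0584 to 0.06). Maff had 41.7, 69.2 and 65.2 CPM in db/db, 58.8, 43.2 and 31.9 in db/+, and 22.5, 22.1 and 37.8 in WT. It rose against WT (1.11 ± 0.33, adjusted p = 0.0315), a call lost without db/db 2, db/db 3, WT 1 or WT 2 (adjusted p = 0.0842 to 0.103), and overlapped db/+ (0.40 ± 0.32, adjusted p = 0.36). Crem, a relative of CREB with a cAMP-induced short form (ICER) that represses cAMP response elements, had 49.3, 47.4 and 53.7 CPM in db/db, 34.4, 38.9 and 29.3 in db/+, and 26.7, 42.3 and 39.8 in WT. It rose against WT (0.47 ± 0.16, adjusted p = 0.0339) and db/+ (0.55 ± 0.16, adjusted p = 0.017). The call against WT was lost without db/db 1, db/db 2, db/db 3, db/+ 1 or WT 1 (adjusted p = 0.0532 to 0.109), and that against db/+ without db/db 3, db/+ 1 or db/+ 3 (adjusted p = 0.0507 to 0.0641). Gene-level counts do not separate ICER, and the overlapping Gm6225 had 1.79% as many counts. Atf3, a stress-induced repressor, had 285, 410.0 and 353 CPM in db/db, 585, 382 and 321 in db/+, and 206, 189.5 and 316 in WT. It did not pass (0.56 ± 0.29, adjusted p = 0.168 against WT).

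The 3 genes named IER share a name but not a function. Ier5, a regulator of heat shock factor activity, had 47.9, 42.4 and 43.97 CPM in db/db, 82.6, 96.9 and 90.3 in db/+, and 79.7, 84.5 and 67.3 in WT. It fell against WT (-0.79 ± 0.10, adjusted p = 2.8e-05) and against db/+ (-1.01 ± 0.10, adjusted p = 3.37e-06), with all db/db libraries lowest. Ier2, a nuclear protein induced by growth factors, had 108, 86.7 and 90.7 CPM in db/db, 197, 174 and 163 in db/+, and 111, 172 and 143 in WT. All db/db levels were lowest and Ier2 fell (-0.58 ± 0.15, adjusted p = 0.0109 against WT; -0.90 ± 0.15, adjusted p = 0.000914 against db/+). Ier3, a stress-responsive protein that acts on ERK signalling and survival, had 25.7, 14.99 and 19.5 CPM in db/db, 13.2, 11.1 and 9.79 in db/+, and 8.49, 7.40 and 6.71 in WT. All db/db libraries were highest, db/db 1 most of all, and Ier3 rose 2.64-fold against WT (1.40 ± 0.19, adjusted p = 7.05e-05) and 1.76-fold against db/+ (0.82 ± 0.18, adjusted p = 0.00322).

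Several immediate early genes end the signal that induces them. Dusp1, a phosphatase that inactivates MAP kinases in the nucleus, had 282, 221 and 228 CPM in db/db, 459, 480.2 and 429.8 in db/+, and 281, 362 and 364 in WT. It fell against WT (-0.46 ± 0.11, adjusted p = 0.00571), where db/db 1 overlapped the lowest WT library, and against db/+ (-0.91 ± 0.12, adjusted p = 4.18e-05). Per1, a circadian repressor that CREB also induces, had 88.5, 87.95 and 80.9 CPM in db/db, 175, 161 and 136 in db/+, and 106, 106 and 148 in WT. All 3 db/db levels were lowest, and Per1 fell against WT (-0.48 ± 0.14, adjusted p = 0.0142) and db/+ (-0.88 ± 0.13, adjusted p = 0.000385). Without db/db 3 the first had an adjusted p of 0.0501. The hour at which islets were collected is not given in the labels, and its part in the level of Per1 was not tested. Rgs2, which shortens signalling through Gq, went the opposite way, with 336, 305 and 354 CPM in db/db, 161, 166 and 97.8 in db/+, and 149.7, 172 and 297 in WT. All db/db libraries were above all others, yet WT 3 lay close to db/db. Rgs2 rose against db/+ (1.23 ± 0.31, adjusted p = 0.0183) and did not pass against WT (0.68 ± 0.30, adjusted p = 0.117; 1.04, adjusted p = 0.00734 without WT 3). The call against db/+ was lost without db/db 1 or db/db 3 (adjusted p = 0.0512 to 0.0539). Sik1, a kinase that restrains CRTC, had 69.7, 67.3 and 75.4 CPM in db/db, 68.2, 65.3 and 48.2 in db/+, and 36.3, 59.7 and 71.01 in WT. It did not pass (0.35 ± 0.24, adjusted p = 0.27 against WT). Dusp2, another MAP kinase phosphatase, had 3.98, 0.372 and 1.08 CPM in db/db, 1.05, 1.52 and 1.47 in db/+, and 1.43, 2.98 and 1.02 in WT. These are near the limit that a count of 0 allows in some libraries (-0.05 ± 0.66, adjusted p = 0.964 against WT).

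BTG proteins restrain proliferation and recruit deadenylases. Btg2 had 464, 548 and 513 CPM in db/db, 1135, 957 and 853 in db/+, and 567, 887 and 800.3 in WT. Btg1 had 153, 126 and 135 CPM in db/db, 175, 230.3 and 238 in db/+, and 181, 221 and 219 in WT. In both genes the db/db libraries were lowest. Btg1 fell by 0.58 ± 0.12 on the log2 scale against WT (adjusted p = 0.00263) and 0.64 ± 0.12 against db/+ (adjusted p = 0.00159). Btg2 fell by 0.56 ± 0.16 against WT (adjusted p = 0.014) and 0.95 ± 0.16 against db/+ (adjusted p = 0.000683), the first being lost without db/db 1 (adjusted p = 0.0539). Zfp36 (tristetraprolin) and Zfp36l1 bind AU-rich elements and promote RNA decay. Zfp36 had 110.2, 62.4 and 53.4 CPM in db/db, 109, 131 and 101 in db/+, and 87.2, 89.5 and 90.3 in WT. It did not pass (-0.25 ± 0.25, adjusted p = 0.475 against WT; -0.60 ± 0.25, adjusted p = 0.0979 against db/+). Without db/db 1 it passed, with a log2 fold change of -0.62 against WT (adjusted p = 0.000495) and -0.97 against db/+ (adjusted p = 9.71e-06). Zfp36l1 had 30.7, 8.42 and 10.3 CPM in db/db, 4.69, 6.24 and 5.87 in db/+, and 5.55, 6.50 and 5.49 in WT. It passed against WT (1.48 ± 0.47, adjusted p = 0.036) and db/+ (1.54 ± 0.47, adjusted p = 0.0312), but its mean rests on db/db 1, the library with the highest acinar, duct and stellate sums. Without db/db 1 the log2 fold change was 0.68 against WT (adjusted p = 0.0138) and 0.76 against db/+ (adjusted p = 0.00817), and with the acinar level in the fit it was -0.05 against WT. The call against WT was lost without db/+ 1, db/+ 2, db/+ 3, WT 1, WT 2 or WT 3 (adjusted p = 0.0545 to 0.108). The call against db/+ was lost without db/+ 1, db/+ 2, db/+ 3, WT 1 or WT 3 (adjusted p = 0.0542 to 0.1).

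The comparison of db/+ with WT asks whether a single db allele is accompanied by differences. In this comparison 8 of 38 genes (21.1%) rose and 0 fell, beside 0.606% of all tested genes that were higher and 0.82% that were lower (1.43% in either direction). At an unadjusted p below 0.05, 16 were higher and 0 lower, but the share of all tested genes at that threshold was not counted. DESeq2 gave 10 higher and 0 lower, beside 3.76% of all tested genes in either direction. With limma-voom there were 7 and 0, beside 0.707%. The 8 were Fos, Jun, Junb, Jund, Klf2, Klf6, Klf10 and Mafk, with log2 fold changes of 0.39 to 0.92. For each the lowest db/+ library was above the highest WT library, as also for 7 of the 30 genes that did not pass. The share of all tested genes without overlap was not counted, so the lack of overlap adds no support to the calls. The largest was that of Jund (0.92 ± 0.15, adjusted p = 0.0249), followed by Klf6 (0.88 ± 0.11, adjusted p = 0.00337) and Mafk (0.87 ± 0.11, adjusted p = 0.00285). Then came Klf10 (0.77 ± 0.10, adjusted p = 0.00285), Junb (0.76 ± 0.14, adjusted p = 0.0362), Jun (0.69 ± 0.11, adjusted p = 0.0144), Fos (0.53 ± 0.11, adjusted p = 0.0412) and Klf2 (0.39 ± 0.09, adjusted p = 0.0444). The median over the 38 genes was 0.28, against 0.02 for all tested genes. Npas4, Arc and Nr4a1, which fell in db/db, had log2 fold changes of 0.07, -0.20 and 0.02 here and did not pass. Fosl1, Bdnf and Ier3, which also had large differences in db/db, had 0.51, 0.69 and 0.58 here. They did not pass either (adjusted p = 0.361, 0.27 and 0.161).

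Of these 8 calls, those of Klf6, Klf10 and Mafk held under all 22 alternatives. Fos was lost without db/db 2, db/db 3, db/+ 1, db/+ 2, WT 1, WT 2 or WT 3 (adjusted p = 0.0547 to 0.193). Jun was lost without db/+ 1 or db/+ 2 (adjusted p = 0.0889 to 0.103), and Junb without db/db 2, db/+ 1, db/+ 2 or WT 2 (adjusted p = 0.0523 to 0.146). Jund was lost without db/+ 1 or db/+ 2 (adjusted p = 0.091 to 0.122), and Klf2 without db/db 2, db/db 3, db/+ 1, db/+ 2, db/+ 3, WT 1 or WT 3 (adjusted p = 0.0711 to 0.147). Dusp1, which did not pass, passed without db/db 1 (adjusted p = 0.0268), and Per1 without WT 3 (adjusted p = 0.0441). With the title letter in the fit 7 rose and 0 fell, with the acinar mean 8 rose, and with the Y-linked level 3 rose. Junb and Klf2 were among the calls lost with the acinar mean. Neither the Y-linked level nor the acinar mean (8.26 to 9.42 in db/+, 7.21 to 8.01 in WT) overlapped between db/+ and WT. Those fits therefore cannot tell such a level from genotype. The db/+ libraries were the only group with almost no Xist in any library, and the part of this in the 8 calls was not tested.

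**Figure D4:**
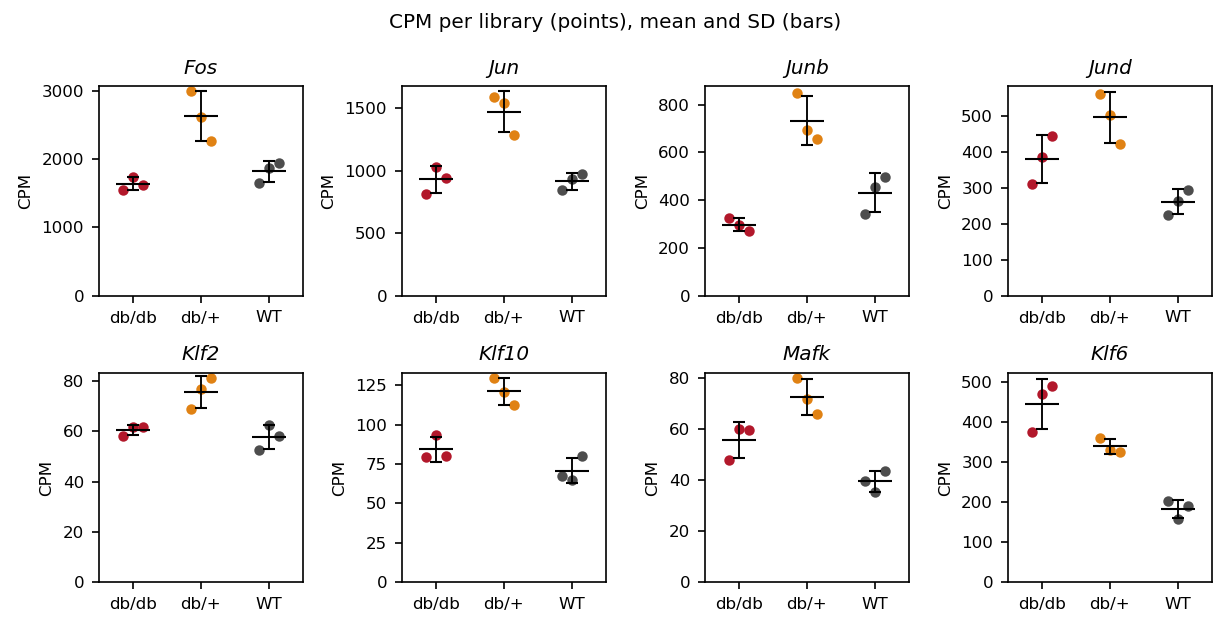
CPM in each library (points) with mean and SD (bars) for the 8 genes that rose in db/+ against WT; each panel starts at 0. Every db/+ point lies above every WT point, and the db/db points lie near WT for Fos, Jun and Klf2, above db/+ for Klf6, and between db/+ and WT for Mafk.

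The libraries of a group did not all stand at the same level. In WT, library 1 had the lowest level of the 3 for 25 of 38 genes, beside 33.7% of all tested genes, and WT 3 the highest for 21, beside 33.7%. In db/+, library 3 had the lowest for 26, beside 35%, and db/+ 1 the highest for 21, beside 38%. In db/db, library 1 was highest for 18, beside 37.5%, and library 2 lowest for 17, beside 31.5%. The genes' summed level was 7155, 7697 and 7531 CPM in db/db, 12712, 11786 and 10508 in db/+, and 7271, 8868 and 9505 in WT. The db/+ libraries thus lay above both other groups, and WT 1 lay within the range of db/db. Without WT 1, 16 of the genes fell and 6 rose in db/db against WT.

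Per kilobase of the longest annotated transcript, the ranks of most genes among the 38 moved by few places between groups. Npas4 had rank 32 in db/db, 12 in db/+ and 12 in WT, and Arc had rank 28 in db/db, 19 in db/+ and 15 in WT. Klf6 had rank 10 in db/db, 13 in db/+ and 16 in WT, and Rgs2 rank 9 in db/db, 15 in db/+ and 13 in WT. Fosl1, Egr2, Egr4, Nr4a3, Dusp2 and Bdnf stood at the low end, between ranks 32 and 38, in all 3 groups.

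The regulators upstream of these genes were read from a list of signalling components, 54 of which were tested. Of them, 19 (35.2%) fell and 7 (13%) rose in db/db against WT, beside 19.9% and 21.8% of all tested genes. Against db/+, 14 (25.9%) fell and 7 (13%) rose, beside 19.7% and 20.6%. In db/+ against WT 2 (3.7%) fell (Crebbp and Mef2d) and 0 rose, beside 0.82% and 0.606% of all tested genes. There 15 were lower and 6 higher at an unadjusted p below 0.05, where the share of all tested genes was not counted. By DESeq2 8 fell and 1 rose, beside 3.76% of all tested genes in either direction. By limma-voom there were 0 and 0, beside 0.707%. In db/db against WT, 4 fell and 6 rose with the acinar level in the fit, and 26 fell and 3 rose with library totals. Nfatc1, a transcription factor that calcineurin activates, had 35.5, 31.1 and 37.7 CPM in db/db, 8.33, 9.87 and 8.73 in db/+, and 11.98, 10.7 and 14.2 in WT. It rose with no overlap (1.50 ± 0.13, adjusted p = 1.19e-06 against WT; 1.95 ± 0.13, adjusted p = 1.32e-07 against db/+). Camk1d, a calmodulin-dependent kinase, also rose (0.86 ± 0.16, adjusted p = 0.000686 against WT; 0.76 ± 0.16, adjusted p = 0.00158 against db/+). Prkar1b, a regulatory subunit of protein kinase A, fell (-0.51 ± 0.08, adjusted p = 0.000303 against WT; -0.51 ± 0.08, adjusted p = 0.000283 against db/+). So did Ppp3cb, a catalytic subunit of calcineurin (-0.43 ± 0.08, adjusted p = 0.000763 against WT), and Rps6ka5, the kinase MSK1 that phosphorylates CREB (-1.12 ± 0.17, adjusted p = 0.000182 against db/+). Creb1 itself had 88.8, 89.1 and 75.2 CPM in db/db, 112, 116 and 111 in db/+, and 111, 113 and 104 in WT. It fell (-0.38 ± 0.08, adjusted p = 0.00192 against WT; -0.42 ± 0.08, adjusted p = 0.000887 against db/+). Creb1 was named after its values were seen.

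A list of other activity-regulated genes had 58 tested members. In db/db 19 (32.8%) rose and 9 (15.5%) fell against WT, beside 21.8% and 19.9% of all tested genes. Against db/+, 16 (27.6%) rose and 11 (19%) fell, beside 20.6% and 19.7%. Vgf, a secreted neuropeptide precursor that cAMP and neurotrophins induce, had 169, 184 and 239 CPM in db/db, 25.5, 26.4 and 24.3 in db/+, and 14.04, 19.96 and 17.7 in WT. All db/db libraries were far above the rest (3.52 ± 0.15, adjusted p = 1.86e-08 against WT; 2.96 ± 0.14, adjusted p = 5.78e-08 against db/+). Plk2, a kinase induced by synaptic activity, rose against WT (1.05 ± 0.09, adjusted p = 9.24e-07), and Inhba, the activin A subunit, rose against db/+ (2.85 ± 0.26, adjusted p = 1.99e-06). Gadd45b, a stress-induced regulator of growth arrest, had 18.3, 15.1 and 13.3 CPM in db/db, 58.8, 63.6 and 46.8 in db/+, and 49.2, 40.3 and 48.8 in WT. It fell with no overlap (-1.58 ± 0.15, adjusted p = 3.07e-06 against WT; -1.87 ± 0.14, adjusted p = 7.39e-07 against db/+). Cited2, a CBP and p300 binding protein, fell too (-1.32 ± 0.11, adjusted p = 6.95e-07 against WT; -1.16 ± 0.11, adjusted p = 2.23e-06 against db/+). In db/+ against WT, 4 (6.9%) rose (Ifrd1, Ppp1r15a, Nfkbia and Pim1, at 0.66 to 1.01 on the log2 scale) and 0 fell, beside 0.606% and 0.82% of all tested genes. There 19 were higher and 3 lower at an unadjusted p below 0.05, where the share of all tested genes was not counted. By DESeq2 12 rose and 0 fell, beside 3.76% of all tested genes in either direction. By limma-voom there were 4 and 0, beside 0.707%.

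Heat shock genes, which tissue handling and protein stress induce, differed between the groups as well. Of 12 tested, 10 (83.3%) fell and 1 (8.33%) rose (Bag3, 0.66 ± 0.14, adjusted p = 0.00213) in db/db against WT. Beside them, 19.9% of all tested genes fell and 21.8% rose, and the median log2 fold change of the 12 was -1.10. Against db/+, 11 (91.7%) fell and 0 rose, beside 19.7% and 20.6% of all tested genes, with a median of -1.57. In that comparison 0 were higher also at an unadjusted p below 0.05, by DESeq2 and by limma-voom. With the Y-linked level in the fit, 4 fell against WT and 0 against db/+; with the title letter, 5 and 3 fell; and without db/db 1, WT 1 and WT 3, 3 and 10 fell. Their summed level was 1738, 2168 and 1331 CPM in db/db, 4536, 6485 and 5656 in db/+, and 4712, 3909 and 3725 in WT. The db/db libraries lay below all others, and the db/+ and WT libraries overlapped. Hspa8, a constitutive chaperone, fell by 0.92 ± 0.13 on the log2 scale against WT (adjusted p = 0.000166), and Dnaja1, a co-chaperone, by 1.89 ± 0.25 (adjusted p = 0.000616). In db/+ against WT 0 of 12 passed, beside 1.43% of all tested genes in either direction, and the median was 0.43. At an unadjusted p below 0.05, 4 were higher and 0 lower, where the share of all tested genes was not counted. DESeq2 and limma-voom gave 0, beside 3.76% and 0.707% of all tested genes in either direction. Hspa1a and Hspa1b are near-identical, so reads may be split between them. The heat shock genes moved with the members that fell in db/db, and their part in that result was not tested.

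**Figure D5:**
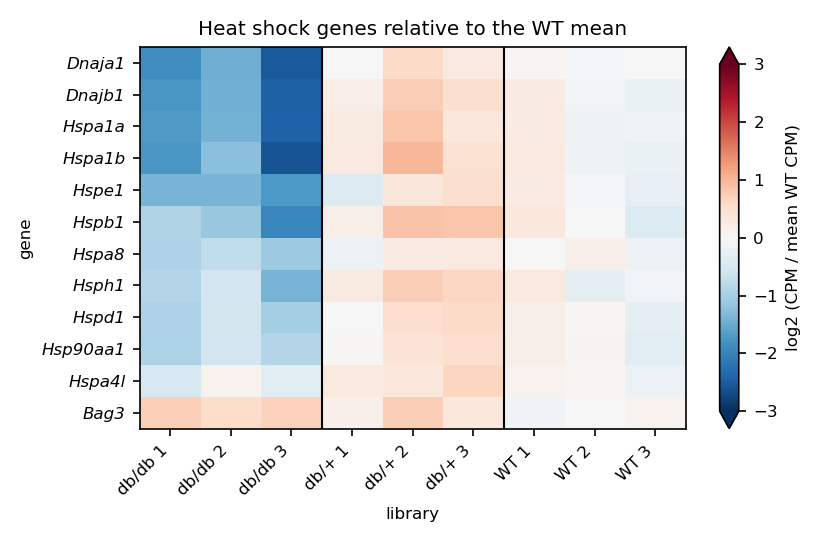
Level of 12 heat shock genes (rows) in each of 9 libraries (columns), as log2 of CPM over the mean CPM of the WT libraries. The db/db columns are blue for 10 of the 12 genes, and Bag3 is the exception that rose against WT.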

How the data were processed

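The submitters' processing notes name bcl2fastq 2.20.0.422, TopHat2 2.0.14 and the mm10 genome build. The authors deposited whole-number counts per gene symbol without normalisation; the program, annotation and strand setting of the counting step were not given in the sources used here. Therefore overlapping or near-identical genes can share counts. The table holds 1 column that matches no sample, which was not used.

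Groups came from the genotype labels. Genes kept by filterByExpr (16826 of 52459) were scaled with TMM factors and fitted over all 9 libraries with edgeR 4.0.16 (limma 3.58.1, R 4.3.3). The quasi-likelihood F-test, robust and two-sided, was adjusted by the Benjamini-Hochberg method over all tested genes, with a threshold of 0.05, and was tested on simulated data. SE were derived from the F statistic. Library totals were 8860024 to 11734886 counts; CPM used the totals over the kept genes multiplied by the TMM factors. Library numbers follow accession order and pair nothing. Members and lists were chosen with earlier results of these data known. Values per library are given for each member. From each pathway list the 2 risen and 2 fallen genes with the smallest adjusted p in a db/db comparison are named. Promoters with no RefSeq entry were passed over for the next gene. Transcript lengths came from GENCODE M1, an annotation of another assembly, and were used for lengths only.

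Alternatives were upper-quartile factors, size factors of DESeq2 1.42.0 or library totals, no low-count filter or 3 libraries with CPM of 1 or more, limma-voom, the DESeq2 Wald test, only the compared groups in the fit, the title letter, the acinar mean or the Y-linked sum as a covariate, Gm42418 and Lars2 removed, and each library left out. Leaving out db/db 1, WT 1 and WT 3 together was added after seeing the data. Figures were drawn with matplotlib 3.10.9.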

Additional observations from a re-analysis of the deposited data

How the results depend on the processing

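No paired analysis was possible because the labels give no replicate numbers. The number of the 38 genes that rose in db/db against WT (11) was 4 with library totals, 7 with no filter on low counts, 3 with the title letter, 6 with the Y-linked sum, 7 without db/db 1, WT 1 and WT 3, and 6 to 10 with 1 library left out. The number that fell (15) was 6 with the acinar mean and 5 with the Y-linked sum. Against db/+, the number that rose (8) was 0 with the title letter, 5 with the Y-linked sum and 5 to 8 with 1 library left out, and the number that fell (20) was 4 with the Y-linked sum. In db/+ against WT the number that rose (8) was 3 with the Y-linked sum and 3 to 9 with 1 library left out. Of the signalling and other activity-regulated genes, 54 changed in db/db against WT, 33 with the acinar mean and 29 with the Y-linked sum; 48 changed against db/+, 22 with the title letter and 19 with the Y-linked sum; and 6 changed in db/+ against WT, 22 with no filter, 21 with DESeq2, 3 with the Y-linked sum and 3 to 15 with 1 library left out. Among values that passed before or after the change of setting, the direction changed for Dusp2 (log2 fold change 2.15) and Zfp36l1 (-0.047, with the acinar mean) against WT, and for Egr4 (0.12) and Klf6 (-0.32) against db/+, with the Y-linked sum unless stated. Among values that passed in neither, it changed under at least 1 alternative for 9 genes against WT, 7 against db/+ and 11 in db/+ against WT. The fits with the title letter, the acinar mean and the Y-linked sum carry the limits given above, and the cause of these changes was not tested.

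Over all tested genes, the calls in db/db against WT were 3670 higher and 3348 lower, or 2176 and 5317 with library totals, 2173 and 2252 with the title letter, 1890 and 1507 with the acinar mean, and 2152 and 1567 with the Y-linked sum. Against db/+ they were 3459 and 3314, or 2011 and 5265 with library totals, 1007 and 1026 with the title letter, and 1174 and 740 with the Y-linked sum. In db/+ against WT they were 102 and 138, or 244 and 524 with no filter, 229 and 404 with DESeq2, 67 and 52 with limma-voom, 34 and 11 with the title letter, 84 and 16 with the acinar mean, 22 and 5 with the Y-linked sum, 54 and 43 without db/db 1, WT 1 and WT 3, 178 and 252 without db/db 1, and 23 and 0 without db/+ 1. Low counts limit Dusp2, Egr4, Fosl1, Nr4a3 and Bdnf most.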
